A study of Mus musculus with 4 samples.

Results

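The Ucn3, Slc30a8 and Glp1r loci are genes of the mature beta cell, and the binding of 3 transcription factors around them was described here from deposited ChIP-seq site lists. A site was taken into a locus when its summit lay in a fixed window of the mm9 genome around the gene. The loci and windows were chosen with earlier results of these data known. The windows were 205 kb long for Ucn3 (chromosome 13, 3840000 to 4045000), 245 kb for Slc30a8 (chromosome 15, 52025000 to 52270000) and 235 kb for Glp1r (chromosome 17, 30940000 to 31175000). They held 47 of the 60439 sites in the lists, namely 13 of 17453 Insm1 sites, 12 of 14607 Neurod1 sites and 22 of 28379 Foxa2 sites. Sites that overlapped by at least 1 bp were joined into regions, which gave 25 regions in the windows of 39412 in all.

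Chromatin came from a mouse beta cell line established from islets of RIP1-Tag2 mice aged 6 weeks, on a mixed C57BL/6, 129/ola and CBA/J background. Beta cells of such mice express a viral oncogene under control of an insulin promoter, so all samples share that transgene and come from a passaged line, not from primary islets. The line was used at passages 10 to 15 and grown in 25 mmol/l glucose. Chromatin was pulled down with antibodies to Insm1, Neurod1 or Foxa2, or with IgG as the control, and each of the 4 samples formed a group of its own. One list per factor was used, and the IgG pull-down enters with no list, so there was no spread between replicates, no background value at these loci and no test between factors. The lists hold no expression values, so neither the identity of the cells nor the activity of the 3 genes was measured here. The depth of the libraries is unknown, and the score of a site is the authors' own value of undefined scale. It was compared only within a list, by its rank and by its percentile, the share of the list's sites that scored lower.

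Ucn3 encodes urocortin 3, a peptide of the corticotropin-releasing factor family that beta cells release with insulin and that acts on neighbouring delta cells; it is widely used as a marker of mature mouse beta cells. Slc30a8 encodes the zinc transporter ZnT8, which loads zinc into insulin granules, where insulin is stored as zinc-bound crystals. Glp1r encodes the receptor for the incretin hormone GLP-1, which raises cyclic AMP in beta cells and strengthens glucose-stimulated insulin secretion. Insm1 is a zinc finger factor of endocrine cells, Neurod1 belongs to the basic helix-loop-helix proteins, which recognise E-boxes, and Foxa2 to the forkhead proteins, which can bind in closed chromatin. The series title is about how the 3 proteins act together in mature beta cells, and loci of mature beta cell genes bear on that question.

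The promoter sequences that RefSeq gives for the members (build GRCm38.p6) are shown because they are the stretches directly before the transcription start. Entries matched 2 of the 3 members, Ucn3 and Glp1r. Each line gives the 250 bases before the annotated transcription start, 5′ to 3′ on the strand of the gene, with matches to the E-box CANNTG in capitals. The Ucn3 stretch lies on the minus strand at chr13:3945350-3945599 and the Glp1r stretch on the plus strand at chr17:30901617-30901866.
Ucn3: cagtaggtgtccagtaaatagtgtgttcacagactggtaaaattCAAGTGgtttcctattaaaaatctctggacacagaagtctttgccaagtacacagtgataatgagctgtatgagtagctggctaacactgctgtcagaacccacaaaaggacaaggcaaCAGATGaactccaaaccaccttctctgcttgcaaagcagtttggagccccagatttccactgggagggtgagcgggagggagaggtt
Glp1r: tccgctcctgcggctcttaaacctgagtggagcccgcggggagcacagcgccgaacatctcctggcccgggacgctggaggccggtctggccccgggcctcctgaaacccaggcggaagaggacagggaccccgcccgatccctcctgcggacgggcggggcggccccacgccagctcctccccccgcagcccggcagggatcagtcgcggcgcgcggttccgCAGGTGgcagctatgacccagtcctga
The Ucn3 stretch held 2 E-boxes and the Glp1r stretch 1, and 66.2% of the 32851 promoters in the table held at least 1. One E-box of Ucn3 read CAGATG (searched on both strands, and itself an E-box), which was found in 14.4% of promoters. The forkhead letters TGTTTAC, searched on both strands, were found in neither stretch and in 3.17% of all promoters. G and C made up 46.4% of the Ucn3 stretch and 73.2% of the Glp1r stretch, with a median of 52.4% over all promoters. The sites are on mm9 and the promoters on GRCm38.p6, so no site was placed relative to these stretches, and a match of letters is a description and not a bound site.

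Within the full windows, Slc30a8 carried the most sites of the 3 loci in all 3 lists. Its window held 6 Insm1, 7 Neurod1 and 12 Foxa2 sites. The Ucn3 window held 4 Insm1, 3 Neurod1 and 5 Foxa2 sites, and the Glp1r window 3, 2 and 5. Per Mb, Slc30a8 carried 24.5 Insm1, 28.6 Neurod1 and 49.0 Foxa2 sites, compared with 6.61, 5.54 and 10.8 over the span of the whole lists. Ucn3 carried 19.5, 14.6 and 24.4 sites per Mb and Glp1r 12.8, 8.51 and 21.3. The density thus lay above that of the whole list for each factor at each locus. The order of the loci depended on the window. With windows narrowed by 50 kb on both sides, Glp1r stood above Ucn3 for all 3 factors (22.2 against 19.0 Insm1, 14.8 against 9.52 Neurod1 and 29.6 against 28.6 Foxa2 sites per Mb). Slc30a8, at 20.7 Insm1, 20.7 Neurod1 and 41.4 Foxa2 sites per Mb, was then highest for Neurod1 and Foxa2 but below Glp1r for Insm1. Counts this small carry wide counting error, and in the full windows Slc30a8 differed from Ucn3 by 2 to 7 sites per list and Ucn3 from Glp1r by 0 or 1. Ucn3 and Glp1r held the same number of Foxa2 sites, so their Foxa2 densities there differ only by the length of the window.

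**Figure D1:**
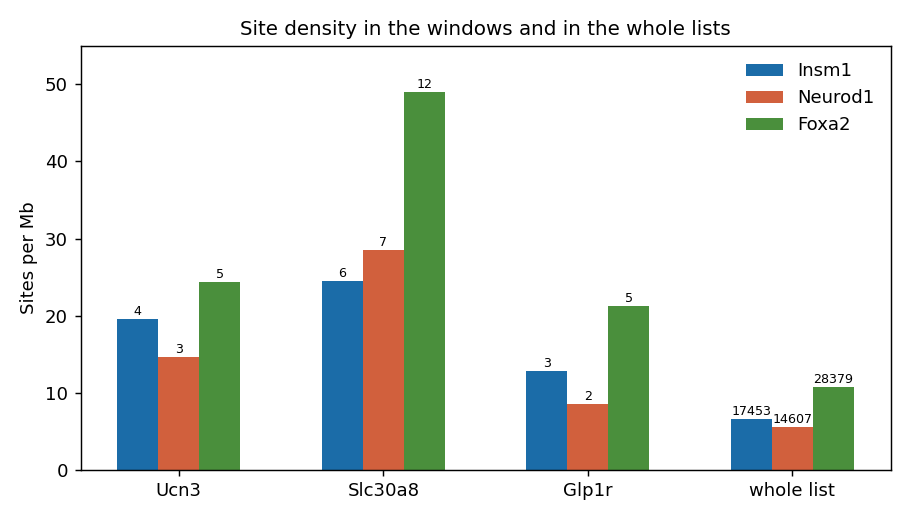
Sites per Mb (vertical axis) of Insm1, Neurod1 and Foxa2 in the 3 windows and over the whole lists, with the number of sites above each bar and no error bars, since there was 1 list per factor. All bars of the 3 windows stand above the whole-list bar of the same factor, and in these full windows the Slc30a8 bars are the highest, up to 49.0 Foxa2 sites per Mb.

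Tiles with as many sites as the full Slc30a8 window were fewer than tiles with as many as the windows of Ucn3 and Glp1r. When the chromosomes were cut into 10761 tiles of 245 kb, 6.0% held at least 6 Insm1 sites, 2.26% at least 7 Neurod1 sites and 0.957% at least 12 Foxa2 sites. Tiles of the Ucn3 length held at least 4 Insm1 sites in 12.4% of cases, at least 3 Neurod1 sites in 16.3% and at least 5 Foxa2 sites in 15.3%. For Glp1r the corresponding shares were 24.4%, 31.4% and 19.1%. Counting regions of any factor, 2.53% of tiles held as many as the 13 of Slc30a8, compared with 19.7% for the 6 of Ucn3 and 24.1% for the 6 of Glp1r. These shares describe the lists and are no test. The loci were chosen as known beta cell genes, with earlier results of these data known, and tiles also cover stretches with no site at all.

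Sites of all 3 factors overlapped at each of the 3 loci in the full windows. The lists come from separate pull-downs, so overlap does not show that the factors bound the same DNA molecule together. All 3 factors had sites at 9 of the 25 regions (36.0%, exact Clopper-Pearson 95% interval 18.0 to 57.5%), of which 5 lay at Slc30a8, 2 at Ucn3 and 2 at Glp1r. Among all regions the share was 16.9%, just below this interval, which covers counting error only and treats regions as independent. With narrowed windows 5 of 15 regions held all 3 (33.3%, 11.8 to 61.6%), none of them at Ucn3, and with sites widened by 500 bp the share of all regions was 19.6%; in both settings the interval held the share of all regions. Tiles with at least 5 such regions made up 1.05% of those of the Slc30a8 length, and tiles with at least 2 made up 12.3% and 14.5% of those of the Ucn3 and Glp1r lengths. At least 2 factors were found at 13 of the 25 regions (36.4% of all regions) and a single factor at 12 (63.6%). Of the regions without all 3, 10 held Foxa2 alone (43.1% of all regions did), 2 held Insm1 alone (11.8%) and 2 held Neurod1 with Foxa2 (4.0%). Single regions held Insm1 with Neurod1, at Slc30a8 (7.5% of all regions), and Insm1 with Foxa2, at Ucn3 (8.03%). No region held Neurod1 alone (8.65%), and with 0 of 25 the exact interval reached up to 13.7%.

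Seen from each list, Neurod1 sites at these loci always overlapped a site of another factor when the full lists were used. All 12 Neurod1 sites shared a region with another factor (100%, exact interval 73.5 to 100%), compared with 76.7% of the whole list, where 23.3% had neither partner. The share in the windows was 83.3% with summits within 100 bp, 91.7% with lists of equal length and 90.9% with sites above the list's median score. It was also 100% with narrowed windows and with sites widened by 500 bp, but neither setting could lower it. Narrowing keeps some of the same sites, and widening can only add overlaps. Foxa2 was the partner at 11 of the 12 (56.4% of the list), Insm1 at 10 (65.9%) and both at 9 (45.6%). Insm1 had a partner at 11 of 13 sites (84.6%, 54.6 to 98.1%), with 73.3% in the whole list. Neurod1 was the partner at 10 of the 13 (55.1% of the list), Foxa2 at 10 (56.3%) and both at 9 (38.2%), and 2 had neither (26.7%). Foxa2 had a partner at 12 of 22 sites (54.5%, 32.2 to 75.6%), with 40.2% in the whole list. Insm1 was the partner at 10 of the 22 (34.6% of the list), Neurod1 at 11 (29.0%) and both at 9 (23.5%), and 10 had neither (59.8%). The intervals for at least 1 partner hold the list's share for Insm1 and Foxa2, and for Neurod1 its lower bound lies below the list's share. A higher share with at least 1 partner than in the whole list was therefore not detectable with these numbers. The exact interval lay above the list's share for Insm1 sites with both partners (38.6 to 90.9%) and for Neurod1 sites with Foxa2 (61.5 to 99.8%), without adjustment for the number of shares compared. With narrowed windows both intervals held the list's share (24.5 to 91.5% and 54.1 to 100%), as they did with widened sites, where the lists' shares were 42.2% and 63.3%. For Neurod1 with Foxa2 this was also so with summits within 100 bp (42.8 to 94.5%, list 50.8%) and with sites above the list's median score (48.2 to 97.7%, list 52.5%).

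Most sites at these loci ranked in the upper part of their list. The Insm1 sites had scores from 79 to 323 with a median of 172, compared with a median of 130 for the list, and 8 of 13 scored above the list's median (49.3% of the list did). Neurod1 sites scored from 57 to 349, median 115 against 72 for the list, with 11 of 12 above the list's median (49.9%). Foxa2 sites scored from 22 to 399, median 79 against 42, with 17 of 22 above it (49.4%). At Slc30a8, 5 of 6 Insm1, 7 of 7 Neurod1 and 10 of 12 Foxa2 sites scored above the list's median. At Ucn3 these were 2 of 4, 3 of 3 and 3 of 5, and at Glp1r 1 of 3, 1 of 2 and 4 of 5. Over the 3 loci together the exact intervals were 31.6 to 86.1% for Insm1, 61.5 to 99.8% for Neurod1 and 54.6 to 92.2% for Foxa2. Those of Neurod1 and Foxa2 lay above the share of their list and that of Insm1 held it. With narrowed windows the intervals of Neurod1 (35.9 to 99.6%) and Foxa2 (46.2 to 94.96%) held it too, as did that of Foxa2 with lists of equal length (44.0 to 89.7%). Among sites above the list's median score, set against the median of those sites, the intervals were 30.8 to 89.1% for Neurod1 and 44.0 to 89.7% for Foxa2 and held it as well. None of the 47 sites was at most 60 bp wide. Widths ranged from 135 to 316 bp for Insm1, from 126 to 287 bp for Neurod1 and from 151 to 367 bp for Foxa2.

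**Figure D2:**
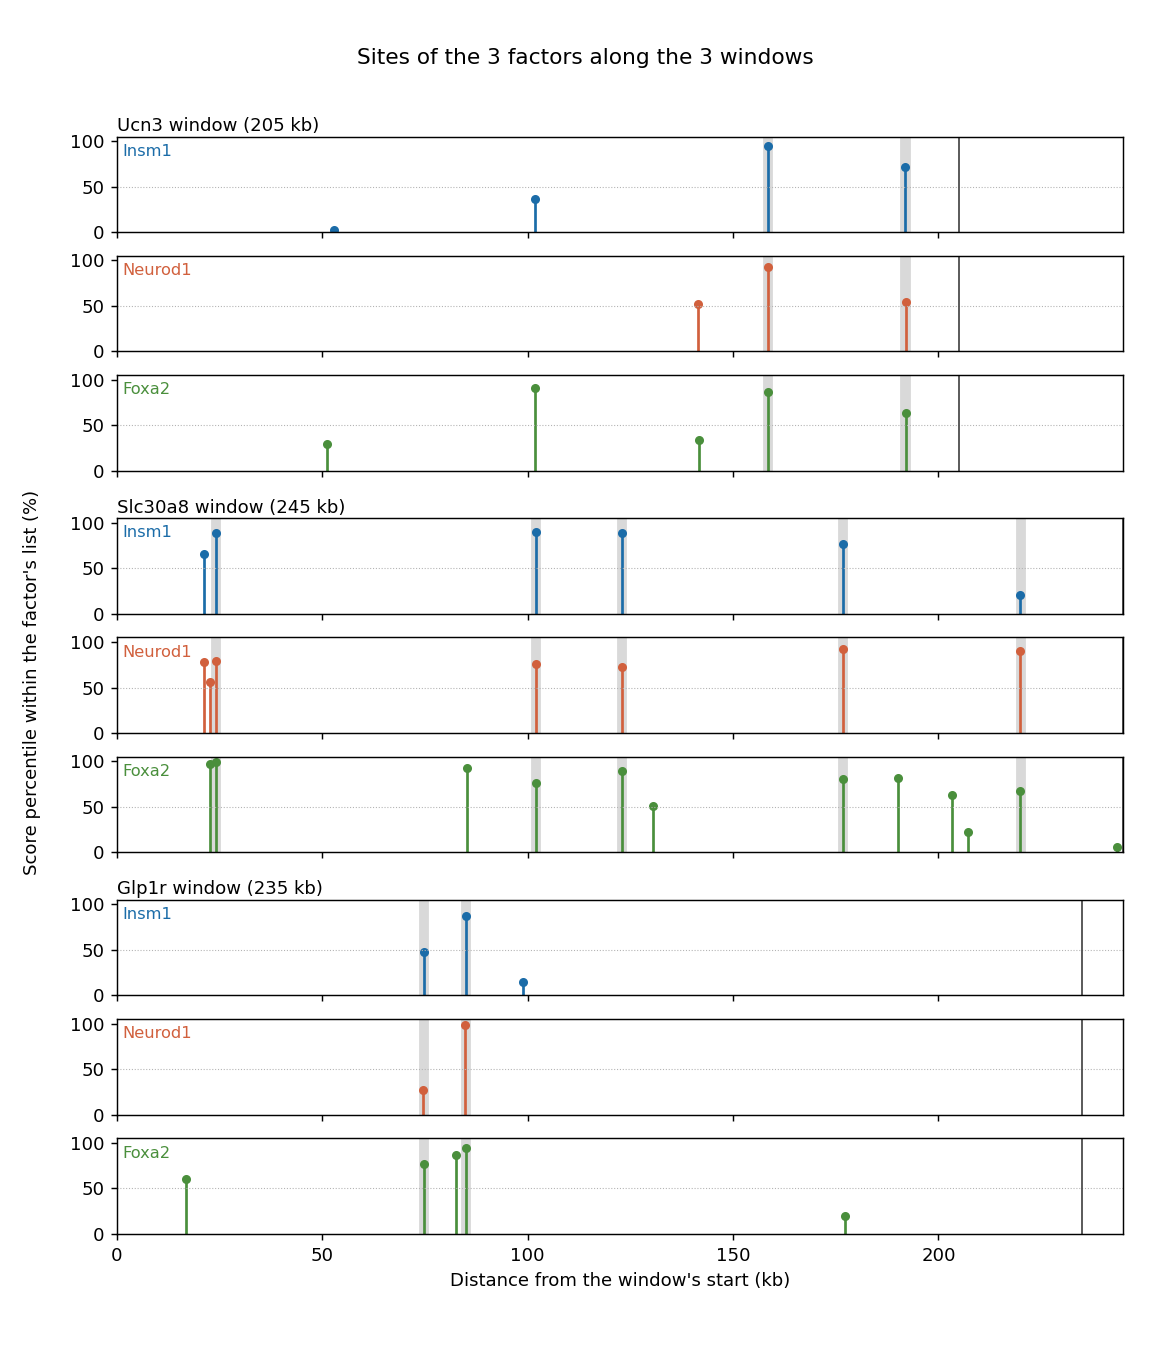
Sites of each factor along the Ucn3, Slc30a8 and Glp1r windows, with the distance of the summit from the window's start in kb on the horizontal axis and the percentile of the site's score within its own list on the vertical axis. Grey bands mark the 9 regions with all 3 factors, 2 at Ucn3, 5 at Slc30a8 and 2 at Glp1r, the vertical line marks the end of each window, and the dotted line is the 50th percentile.

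At Ucn3, the strongest region lay at chromosome 13, 3998327 to 3998539, and held all 3 factors. It was the highest-scoring site of the window for Insm1 (score 323, rank 1006, above 94.2% of the list) and for Neurod1 (208, rank 984, above 93.2%). Its Foxa2 site scored 121 (rank 3601, above 87.2%). All 3 sites therefore stood high at once: ordered by the lowest of their 3 percentiles, this region was 523rd of the 6665 regions with all 3 factors.

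A weaker region with all 3 factors lay 33.6 kb further along, at 4031905 to 4032091. There the Insm1 site scored 172 (above 71.6% of its list), the Neurod1 site 77 (above 54.3%) and the Foxa2 site 56 (above 63.5%). The highest Foxa2 score of the Ucn3 window, 146 (rank 2631, above 90.6%), was instead found at 3941680 to 3941913, beside an Insm1 site of score 113 that stood above only 36.2% of its list and with no Neurod1 site. Neurod1 and Foxa2 overlapped without Insm1 at 3981432 to 3981768, with scores of 75 and 33.

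The 2 remaining Ucn3 regions were single weak sites. A Foxa2 site of score 31 lay at 3891054 to 3891205 (above 30.0% of its list), and an Insm1 site of score 79 at 3892724 to 3892859 (above 2.17%). Their centres were 1.66 kb apart, and they did not overlap. The order of strength thus differed by factor at this locus, with Insm1 and Neurod1 strongest at the same region and Foxa2 strongest at another.

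At Slc30a8, the window opened with 3 regions in a row, whose centres were 1.48 and 1.4 kb apart. The first, at chromosome 15, 52046076 to 52046266, held Insm1 (score 158, above 65.8% of its list) and Neurod1 (118, above 78.4%). The second, at 52047528 to 52047766, held Neurod1 (79, above 56.1%) and Foxa2 (272, rank 805, above 97.1%). The third, at 52048933 to 52049156, held all 3 factors, with the highest Foxa2 score of the 3 windows (399, rank 318, above 98.9%), an Insm1 score of 248 (above 88.2%) and a Neurod1 score of 121 (above 79.4%). Neurod1 was thus present at each of the 3, and Insm1 and Foxa2 at 2 each. Over the 3 windows 7 of 25 regions had another region within 3 kb, compared with 21.6% of all regions.

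The other 4 regions of Slc30a8 with all 3 factors were spread over the rest of the window. The one at 52126924 to 52127123 carried the highest Insm1 score of the locus (260, rank 1819, above 89.5%), with Neurod1 at 112 (above 76.2%) and Foxa2 at 78 (above 75.9%). At 52147734 to 52148088 the Insm1 site scored 250 (above 88.4%), the Neurod1 site 104 (above 72.9%) and the Foxa2 site 134 (above 89.1%). The region at 52201614 to 52201846 had the highest Neurod1 score of the locus (199, rank 1093, above 92.5%), with Insm1 at 187 (above 76.2%) and Foxa2 at 91 (above 80.3%). These 3 regions, like the third of the opening row, had each site above 70% of its list.

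The last of the 5, at 52244895 to 52245237, was uneven. Its Neurod1 site scored 173 (rank 1488, above 89.7%), while its Insm1 site scored 97 and stood above only 20.3% of its list, and its Foxa2 site scored 61 (above 67.0%). Its 3 summits nevertheless lay within 19 bp of each other.

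Foxa2 alone made up the other 6 regions of Slc30a8. The strongest, at 52110111 to 52110338, scored 172 (rank 1980, above 93.0% of the list) and had no Insm1 or Neurod1 site, while the weakest, at 52268327 to 52268509, scored 22 (above 6.08%). Across the 3 windows the 10 Foxa2 sites without a partner had a median score of 47.5, compared with 91 for the 9 in regions with all 3 factors. Over the whole list these medians were 34 and 85, so these 2 kinds of site were ordered alike at the loci and in the list. The 3 Foxa2 sites in regions with 2 factors were not. Their median was 146 at the loci, above the 91, while in the list it was 52, below the 85.

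At Glp1r, 2 regions with all 3 factors lay on both sides of a Foxa2 site and differed in strength. The stronger, at chromosome 17, 31024809 to 31024974, had the highest Neurod1 score of the 3 windows (349, rank 232, above 98.4% of the list), a Foxa2 score of 205 (rank 1444, above 94.9%) and an Insm1 score of 240 (rank 2231, above 87.1%). These were the highest scores of the window in all 3 lists. The weaker, at 31014486 to 31014853, scored 57 for Neurod1 (above 27.1%), 127 for Insm1 (above 47.9%) and 80 for Foxa2 (above 76.7%). It was the widest region of the 3 windows, at 367 bp.

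The remaining Glp1r sites stood alone. Foxa2 had sites at 31022385 to 31022605 (score 120, above 87.0%), 2.4 kb from the stronger region, at 30956707 to 30956979 (52, above 60.2%) and at 31117213 to 31117386 (27, above 19.8%). A single Insm1 site without a partner lay at 31038656 to 31038860 and scored 91 (above 13.9%). From there no site of any factor was listed for 78.5 kb, up to the last Foxa2 site, which was the longest gap between neighbouring regions in the 3 windows.

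**Figure D3:**
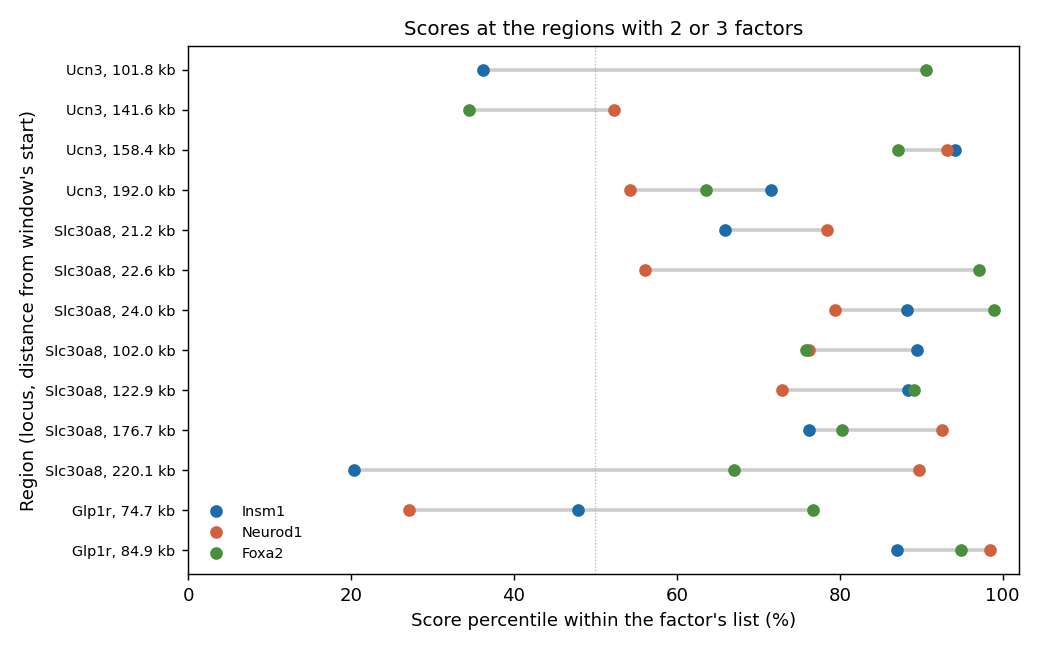
Percentile of each site's score within its own list (horizontal axis) at the 13 regions with 2 or 3 factors, named by locus and distance of the centre from the window's start. Each point is a site, the grey bar spans the sites of a region, and the dotted line is the 50th percentile. The regions at 158.4 kb of Ucn3 and at 84.9 kb of Glp1r have all 3 points above 87.0%, while the bar at 220.1 kb of Slc30a8 runs from 20.3 to 89.7%.

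Which factor stood highest changed from region to region. Among the 9 regions with all 3 factors, the highest of the 3 percentiles belonged to Insm1 at 3, to Neurod1 at 3 and to Foxa2 at 3, compared with 27.2%, 24.4% and 48.4% of the 6665 such regions. The lists differ in length and in their lowest score, so this compares positions in the lists and not amounts of bound protein. Insm1 led at both such regions of Ucn3 and at 1 of Slc30a8. All 3 sites stood at or above the 50th percentile of their lists at 7 of the 9 regions, and did so at 44.7% of the 6665. The exceptions were the uneven Slc30a8 region and the weaker Glp1r region. No interval was computed for these shares, and 9 regions carry wide counting error, so no difference from the 6665 is read from them.

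Summits of the 3 factors lay close together at the shared regions. In the 9 regions with all 3 factors, the summits fell within 13 to 75 bp, median 45 bp, compared with a median of 65 bp over the 6665 such regions. The tightest was the Slc30a8 region at 52147734 to 52148088, where the Insm1 and Foxa2 summits were 3 bp apart and the Neurod1 summit 13 bp from that of Insm1. At the stronger Ucn3 region the Insm1 and Neurod1 summits lay 4 bp apart and the Foxa2 summit 31 bp from Insm1. Overlap of narrow sites alone keeps summits near each other, so closeness by itself is not a finding.

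Insm1 and Foxa2 summits were 17 bp apart in the median over 10 shared regions (range 3 to 73 bp), compared with 40 bp over all 9829. For Insm1 and Neurod1 the median was 23.5 bp over 10 regions (4 to 59 bp), with 31 bp over all 9622. For Neurod1 and Foxa2 it was 44 bp over 11 regions (7 to 203 bp), with 41 bp over all 8241. The 203 bp belonged to the Ucn3 region without Insm1 and the next largest, 119 bp, to the Slc30a8 region without Insm1. Intervals of the medians at the 95% level, taken from the ordered distances, were 4 to 59 bp for Insm1 and Foxa2. They were 9 to 52 bp for Insm1 and Neurod1 and 10 to 119 bp for Neurod1 and Foxa2. Each held the median over all shared regions of the pair, so a difference in spacing was not detectable. The Neurod1 summit was nearer to that of Insm1 at 4 of the 9 regions with all 3 factors, both Ucn3 regions among them, and the Foxa2 summit was nearer at 5, both Glp1r regions among them. Over all such regions Neurod1 was nearer at 56.6% and Foxa2 at 41.8%.

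**Figure D4:**
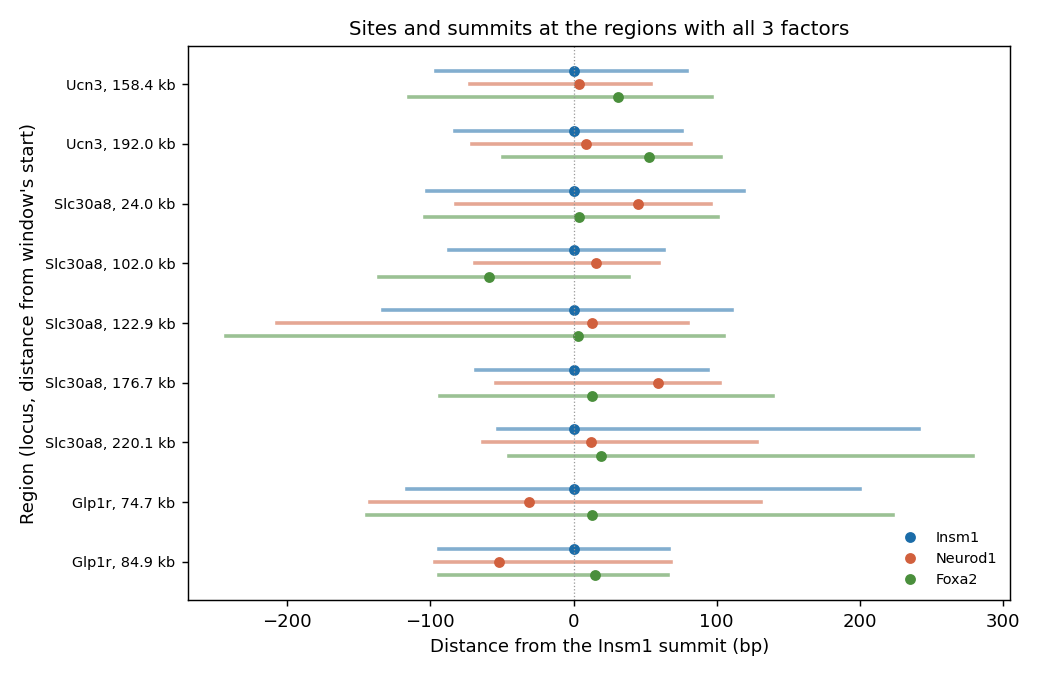
Extent (lines) and summit (points) of the Insm1, Neurod1 and Foxa2 sites at the 9 regions with all 3 factors, as the distance in bp from the Insm1 summit, with regions named by locus and distance from the window's start. The summits span 13 to 75 bp, and at each region the 3 sites share at least 108 bp.

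The windows' edges did not divide any close group of sites at Ucn3 or Glp1r. At Ucn3 the first site inside, Foxa2 of score 31, lay 51.2 kb from the edge and the nearest outside, Foxa2 of score 42, lay 195 kb beyond it. At the far edge the distances were 12.96 kb inside (Foxa2, score 56) and 145 kb outside (Foxa2, score 82). For Glp1r they were 16.9 kb inside (Foxa2, 52) and 121 kb outside (Insm1, 87) at the near edge, and 57.7 kb inside (Foxa2, 27) and 67.1 kb outside (Foxa2, 126) at the far edge. Slc30a8 sites continued closer to the edges, with Neurod1 sites of score 118 at 21.2 kb inside and of score 57 at 21.1 kb outside the near edge. At its far edge a Foxa2 site of score 22 lay 1.6 kb inside and one of score 23, in a region with all 3 factors, 20.5 kb outside.

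No mm9 annotation was used here, so the sites were not placed in exons, introns or promoters, and a site in a window need not act on the gene that names it. In the GRCm38.p6 gene table, the protein-coding genes within 100 kb of Ucn3 were Calm5, Net1 and Tubal3. Those near Glp1r were Dnah8 and Umodl1, and the table listed a pseudogene but no other protein-coding gene that close to Slc30a8.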

How the data were processed

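Binding of Insm1, Neurod1 and Foxa2 was measured by ChIP-seq in 1 beta cell line. The submitters' processing notes name the mm9 build, MACS 1.4, Bowtie 0.12.7 and CASAVA; their settings, the threshold, the control and the treatment of repeats are not stated there. Each line of the deposited lists holds a chromosome, start, end, inner position (read as the summit) and a whole number, the authors' score, whose definition is not given. The IgG sample was not analysed here. Sites with summits in the 3 windows were kept; regions are sites joined by at least 1 bp of overlap over the whole lists. Tiles are consecutive full windows from the start of each chromosome to its last listed site. Shares carry exact Clopper-Pearson 95% intervals, which treat sites as independent and cover counting error only. No test was run, since each factor has 1 list. Named were every region with all 3 factors and the highest-scoring site of each list per window; the other sites were added after their values were seen. The members and windows were chosen with earlier results of these data known. Region joining was checked on simulated lists. Alternatives used other sites, windows, sharing rules and tiles. Software was matplotlib 3.10.9, pandas 2.3.3, scipy 1.17.1, numpy 2.4.6 and Python 3.11.15.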

Additional observations from a re-analysis of the deposited data

How the results depend on the processing

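Of 90 alternative values for 21 results, 74 stayed within 1.5 times the reported count or within the reported interval. Staying so does not mean that a difference from the list held. Among sites above the median score, 63.6% of Neurod1 sites lay above the median of those sites, compared with 91.7% as reported. That value counted as staying, although its interval (30.8 to 89.1%) held the list's share. Some of the 74 values could not move. No site in the windows was at most 60 bp wide, so keeping only wider sites could not change the 9 site counts. Nor could it change the 3 counts of regions with all 3 factors or the 3 shares with a partner. The Neurod1 list is the shortest, so lists of equal length left it whole. Its site counts and its share above the list's median could not change there. Tile shares were counted apart: 12 of their alternative values stayed within the reported interval and 12 left it. Narrowing the windows by 50 kb on both sides left 2 Insm1, 1 Neurod1 and 3 Foxa2 sites at Ucn3, 3, 3 and 6 at Slc30a8, and 3, 2 and 4 at Glp1r, which placed Glp1r above Ucn3 in density for all 3 factors and above Slc30a8 for Insm1. The regions with all 3 factors went to 0 at Ucn3 and 3 at Slc30a8 and stayed at 2 at Glp1r. Both Ucn3 regions lay in the 50 kb trimmed at the far edge, 158.4 and 192.0 kb from the start of the 205 kb window. Those lost at Slc30a8 lay 24.0 and 220.1 kb from the start of its 245 kb window. Sites above the median score of their list left 2 Insm1 and 3 Foxa2 sites at Ucn3, and 1 Insm1 site, 1 Neurod1 site and 1 region with all 3 factors at Glp1r. With lists of equal length, 3 Foxa2 sites were left at Ucn3. The share of Insm1 sites with a partner became 100% with sites above the median score and with lists of equal length, which both drop weak sites. Summits within 100 bp or sites widened by 500 bp left 2, 5 and 2 regions with all 3 factors at Ucn3, Slc30a8 and Glp1r, but neither rule could change these counts. The summits of those regions spanned at most 75 bp. Widening can only add overlaps, and the closest region centres, 1.4 kb apart, were too far for any to join. The 3 shares with a partner therefore could not change with widening either. Counting only tiles with at least 1 site, a setting chosen after seeing the data, raised the shares of tiles as rich as the Slc30a8 window to 7.69% for Insm1, 2.89% for Neurod1, 1.23% for Foxa2 and 1.35% for regions with all 3 factors. In the same order, the shares rose to 16.6%, 21.8%, 20.5% and 16.4% for Ucn3 and to 31.5%, 40.5%, 24.6% and 18.7% for Glp1r. No paired analysis was possible because each group has 1 sample and no test was run. Depth and control signal are unknown, so absence of a site is not absence of binding.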
